A study of Gallus gallus with 3 samples.

Results

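Gene expression was compared between DT40 cells exposed for 4 h to the peptide BP5 at 0.02 µg/ml and untreated DT40 cells at 0 µg/ml, with 1 array on each side. The comparison used 2 of the 3 arrays of the study. The remaining array held cells given another peptide, BSP-II, at 2 µg/ml for 4 h, and its values are given beside some results. All cells were grown in RPMI medium with fetal bovine and avian serum, and Cy3-labelled cRNA made from total RNA was read on 1-colour Agilent arrays of chicken probes. The design text mentions independent experiments and separately grown cells, but which of them each array stands for is not stated in the labels. Each group is therefore a single array, no p-value was computed, and every difference below is a difference between 2 arrays. The value after ± is the scanner's own error of the spots and says nothing of the spread between cultures.

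DT40 is a B cell line from a bursal lymphoma that avian leukosis virus induced in a chicken, and it carries a viral insertion at the MYC locus. In birds, B cells mature in the bursa of Fabricius, where the B cell receptor and its kinases carry signals for survival and growth. Toll-like receptors signal through the adaptor MYD88 to NF-κB, which IκB proteins hold in the cytoplasm until they are degraded.

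Probes were kept where the scanner software called the spot well above background on both arrays, where neither spot was an outlier, and where the spot lay outside columns 1 and 2 of the array. Of 42034 probes, 15407 passed, and 2602 of these could be named through a RefSeq accession, which gave 2541 genes. Another 8 genes passed the background call with BP5 alone, 214 in untreated cells alone and 992 on neither, of 3755 named genes with a usable probe. The log2 ratio is the log2 signal with BP5 minus that in untreated cells, each relative to the 75th percentile of its array, which was 183.3 with BP5 and 262.6 in untreated cells. A log2 ratio of 0 therefore stands for a raw BP5 signal that is 0.698 of the raw untreated signal. Probes differ in how brightly they bind, so signals are compared between arrays and not between genes. RNA from a culture cannot tell fewer cells carrying a transcript from less of it per cell.

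The BP5 array had fewer probes well above background, 15991, against 19592 on the untreated array. Detection began at a signal of 49.1 with BP5 and 30.2 in untreated cells, the lowest spots that passed the background call. The BP5 and BSP-II arrays belong to scan 2 and the untreated array to scan 1 of the same slide, so the effects of scan and of peptide cannot be told apart. Of 12 B cell markers on the array, 8 were well above background with BP5 (BTK, SYK, TCF3, IKZF1, POU2AF1, BCL6, CD74 and LY86) and 9 in untreated cells, where LYN was added. CD79B, PAX5 and EBF1 were not well above background on either array. The summed signal of the 12 was 7346 with BP5 and 11446 in untreated cells. This sum and those below are of raw signals, where a log2 ratio of 0 stands for 0.698 of the untreated signal. They are weighted to the brightest probes. Markers of other cells were fewer: 2 of 6 T cell markers (CD3D and CD247), 1 of 3 macrophage and granulocyte markers (LYZ), 1 of 2 erythroid and thrombocyte markers (TUBB1) and 2 of 6 fibroblast, epithelial and endothelial markers (CDH1 and EPCAM) were well above background, on both arrays. The summed T cell signal was 2349 with BP5 and 3981 in untreated cells, most of it from CD3D. The macrophage and granulocyte markers summed to 122.5 with BP5 and 153.7 in untreated cells, and the erythroid and thrombocyte markers to 896.8 with BP5 and 2545 in untreated cells. The fibroblast, epithelial and endothelial markers summed to 697.5 with BP5 and 1017 in untreated cells. The part of such cells in the results was not tested.

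Most genes had close values on the 2 arrays: 2071 of 2541 (81.5%) differed by less than 1.5-fold after scaling, around a median log2 ratio of -0.09. A gene was counted as higher or lower where its ratio reached 2-fold and all its measured probes had the same sign. By this rule 57 genes (2.24%) were higher with BP5 and 96 (3.78%) were lower. This split depends on the scaling: with the percentile taken over probes well above background on both arrays, which moved the median by 0.12, 76 genes were higher and 73 lower. After the median of neighbouring spots was subtracted, 60 were higher and 52 lower. The lower genes reached further: 31 of them, but 5 of the higher ones, passed 3-fold. All counts by list below are to be read against the shares over all genes, 2.24% higher and 3.78% lower.

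A group of 38 genes kept their 2-fold difference under all 7 alternative treatments of the same spots that retain the filter on dim probes, 11 of them higher and 27 lower with BP5. They were picked after their values were seen. Each of the 38 rests on 1 measured probe, which no alternative replaced. Not all 7 alternatives could end a call. Keeping columns 1 and 2 left the values of these genes unchanged. The percentile over detected probes raised every log2 ratio by 0.12, which cannot end a higher call. The authors' table gave values close to quantile normalization, -4.01 and -4.03 for MCM5. The span given after a log2 ratio below is its range over those 7 alternatives. The one called normexp below changed several steps at once: it started from median spot signals in place of the processed ones and used another background correction with an added offset.

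**Figure D1:**
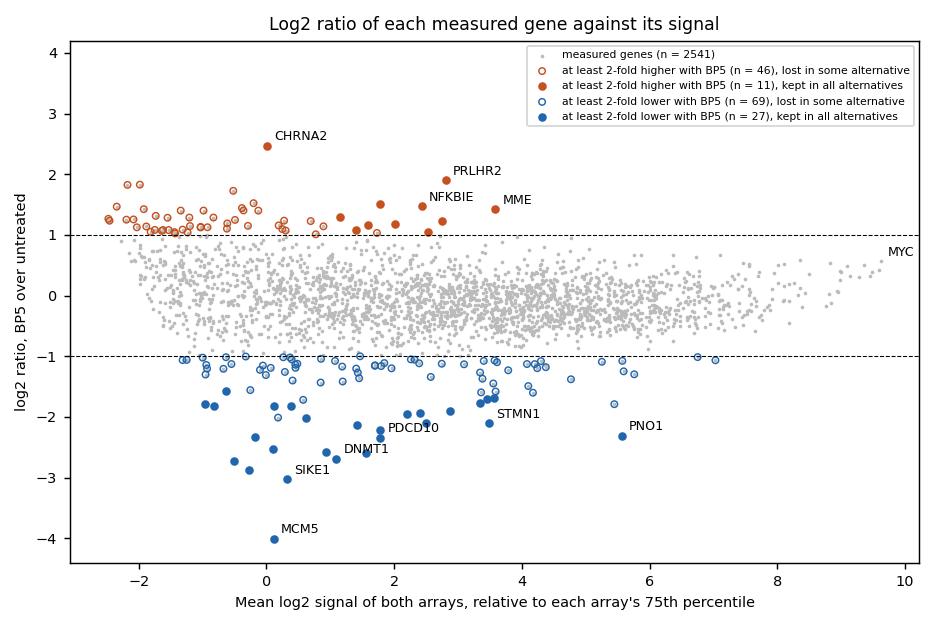
Log2 ratio of BP5 over untreated for 2541 genes against the mean log2 signal of both arrays, with dashed lines at 2-fold. Filled points are the 11 higher and 27 lower genes that kept 2-fold in all 7 alternatives, open points the other called genes. The calls above the upper line crowd at low signal, and those below the lower line run along most of the signal range. Near the untreated edge of detection the filter admits only genes with a raised ratio.

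The lowest log2 ratio of the 2541 genes belonged to DNA replication, where 3 of 31 measured genes were lower with BP5 and none was higher. Over all genes 3.78% were lower and 2.24% higher. The list was written with earlier results of these data known, and it holds DNMT1 and CHAF1B, which are in neither chromatin list. Its count is therefore no test of the family. MCM5, a subunit of the replicative helicase, had a signal of 49.3 with BP5, against 1138 in untreated cells, a log2 ratio of -4.01 ± 0.35 (-4.03 to -2.53). The BP5 signal of MCM5 sits at the edge of detection, just above 49.1. DNMT1, which copies DNA methylation onto new strands, read 154.3 with BP5 and 1424 in untreated cells, a log2 ratio of -2.69 ± 0.22 (-2.69 to -2.09). CHAF1B, a subunit of the complex that loads histones behind the fork, read 82.3 with BP5 and 680.0 in untreated cells, a log2 ratio of -2.53 ± 0.27 (-2.54 to -1.65). All 3 kept 2-fold in every one of the 7 alternatives. With BSP-II the log2 ratios to the same untreated array were -3.42 for MCM5, -2.08 for DNMT1 and -2.27 for CHAF1B, and these share the untreated spots with the BP5 ratios.

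The rest of the replication genes did not follow these 3. The family's median log2 ratio was -0.26, against -0.09 over all genes. MCM3, another helicase subunit, read 718.8 with BP5 and 794.6 in untreated cells, a log2 ratio of 0.37. SSRP1, part of the histone chaperone FACT, had the family's highest log2 ratio, 0.83. FEN1, which trims Okazaki fragments, read 24789 with BP5 and 35121 in untreated cells, a log2 ratio of 0.02, and TOP1, which relaxes DNA ahead of the fork, had -0.27. None of the 21 genes of nucleotide synthesis was called (median -0.05), with log2 ratios between -0.50 for UMPS and 0.59 for RRM1, a subunit of ribonucleotide reductase.

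**Figure D2:**
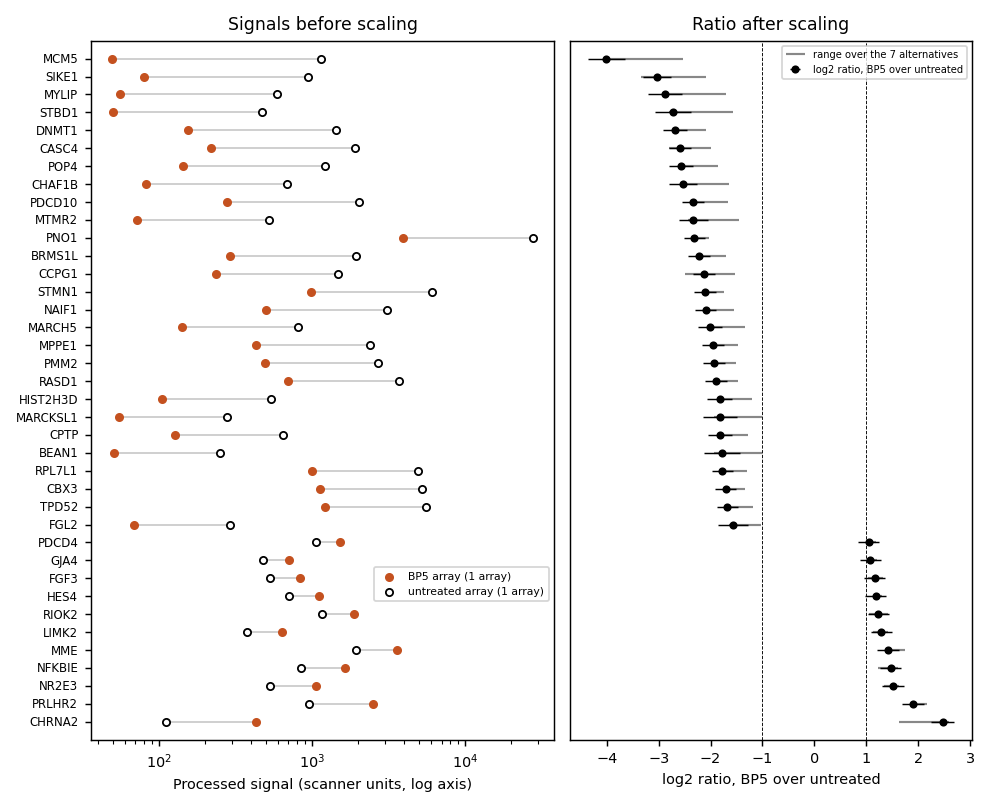
The 38 genes that kept 2-fold in all 7 alternatives. Left, processed signal on the BP5 array (filled) and the untreated array (open), on a log axis; right, log2 ratio with the scanner's spot error (thin bar) and the range over the alternatives (grey). MCM5, STBD1 and BEAN1 have BP5 signals close to the detection edge of 49.1, while PNO1 is bright on both arrays.

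DT40 is widely used to study DNA repair because it recombines introduced DNA readily. Over all genes 2.24% were higher and 3.78% lower, so that few calls would fall in a set of this size. None of 15 measured genes of homologous recombination and crosslink repair (median 0.02) and none of 23 other repair genes (median -0.13) passed 2-fold. MRE11, a nuclease at DNA ends, had a log2 ratio of 0.79 and FANCL, a crosslink-repair ligase, -0.59, the ends of the range for the recombination genes. RAD23B, a damage-recognition partner in excision repair, had probes that disagreed, -1.79 at one (60.6 with BP5 and 300.8 in untreated cells) and 0.29 at the other, and was not called for that reason. Among the 9 genes of p53 and checkpoint signalling (median -0.31) none was called, with CHEK2, a checkpoint kinase, lowest at -0.86. The 23 cyclins, cyclin-dependent kinases and E2F factors (median -0.12) also held no call, from CCND1 at -0.60 to CDK10 at 0.40.

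Among 39 genes of mitosis (median -0.25), 2 were lower. TTK, a kinase of the spindle checkpoint, read 64.2 with BP5 and 203.1 in untreated cells (log2 ratio -1.14, -1.29 to -0.64), and KIF14, a motor of cell division, read 103.3 with BP5 and 297.0 in untreated cells (-1.005, -1.05 to -0.67). Both fell short of 2-fold under at least 1 alternative. CDC20, the activator of the anaphase-promoting complex, had a log2 ratio of 0.24, and the cohesin subunit RAD21 had 0.68.

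In chromatin, 1 of 46 modifiers and remodellers (median -0.08) was lower: CBX3, a heterochromatin protein, read 1117 with BP5 and 5228 in untreated cells, a log2 ratio of -1.71 ± 0.20 (-1.71 to -1.34). DNMT3B, a methyltransferase that sets new marks, had a log2 ratio of 0.71, where DNMT1 had -2.69. The histone list held no call among 9 genes (median -0.25), with NPM1 at 0.39 and H3F3B, a replacement histone, at 0.59. HIST2H3D, a histone H3 gene outside that list and so picked by its value, read 105.2 with BP5 and 534.8 in untreated cells, a log2 ratio of -1.83 (-1.87 to -1.21).

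For the B cell receptor and B cell surface, 1 of 12 measured genes was higher and none lower, around a median of 0.22. LY86, which pairs with the Toll-like receptor relative RP105 on B cells, read 327.3 with BP5 and 223.2 in untreated cells, a log2 ratio of 1.07 (0.74 to 1.37). Its call was lost under normexp. The receptor's kinases BTK and SYK had log2 ratios of 0.71 and 0.29, and CD74, the invariant chain, -0.10. The others lay between GRB2 at -0.45 and CD81 at 0.33, through PIK3CD at 0.02, POU2AF1 at 0.14, PTPN6 and VAV2 at 0.19 each, VAV3 at 0.24 and CXCR4 at 0.32.

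None of 17 genes in the list of B cell transcription factors and the J chain was called (median 0.11). IRF4 read 24242 with BP5 and 22415 in untreated cells, a log2 ratio of 0.63, and XBP1, a plasma cell factor, 40708 with BP5 and 41562 in untreated cells, a log2 ratio of 0.49. JCHAIN, the joining chain of secreted IgM, had 31762 with BP5 and 42411 in untreated cells, a log2 ratio of 0.10. These are bright spots with a narrow error, and all 3 stayed inside 2-fold. The raw signals of IRF4 and XBP1 were close on the 2 arrays, so their positive ratios rest largely on the scaling. The negative log2 ratios of the list were -0.41 for IKZF1, -0.38 for IKZF2, -0.30 for ID3, -0.27 for TCF3, -0.15 for BCL11A and -0.14 for FOXO1. The remainder were IRF8 at 0.09, ELF1 at 0.11, RUNX1 at 0.14, TCF12 at 0.25, POU2F1 at 0.31, BCL6 at 0.36, ID2 at 0.54 and MYB at 0.61. Antigen presentation gave no call among 6 genes (median 0.26), from the protease CTSS at -0.38 to CTSD at 0.78.

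Toll-like receptor and NF-κB signalling had 1 higher and 3 lower genes of 14 (median -0.18), against 2.24% and 3.78% of all genes. NFKBIE, which encodes the inhibitor IκBε, read 1642 with BP5 and 849.1 in untreated cells, a log2 ratio of 1.47 ± 0.20 (1.23 to 1.604). SIKE1, a suppressor of the kinase IKKε and TBK1, read 80.2 with BP5 and 936.8 in untreated cells, a log2 ratio of -3.03 ± 0.27 (-3.34 to -2.09). These 2 kept 2-fold in every alternative. With BSP-II, NFKBIE had a log2 ratio of 1.31 and SIKE1 of -2.97 to the same untreated spots.

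MYD88, the adaptor of most Toll-like receptors, read 127.0 with BP5 and 415.5 in untreated cells, a log2 ratio of -1.19 (-1.24 to -0.75), and with BSP-II it was 0.29. MYD88 and BCAP29 lie in adjoining rows, 97 and 98, of column 15. BCAP29 had -1.25 with BP5 and 0.50 with BSP-II. The part of array position in these contrasts was not tested. TAB1, which activates the kinase TAK1 downstream of MYD88, read 2096 with BP5 and 6568 in untreated cells, a log2 ratio of -1.13 (-1.13 to -0.76). Both calls were lost under at least 1 alternative. Of the other NF-κB genes, NFKBIZ had -0.93, NFKB2 -0.55, NFKBIA -0.04, MAP3K14 0.06 and CHUK 0.07. The adaptors TICAM1 and TIRAP had -0.42 and -0.26, TOLLIP had -0.09, TAB3 0.05 and the receptor TLR7 0.02.

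In the interferon list (median 0.11), 1 of 12 genes was higher and 2 were lower, and none of these kept its call in every alternative. IFNW1, a type I interferon gene, read 123.8 with BP5 and 72.8 in untreated cells, a log2 ratio of 1.29 (0.35 to 1.41). IRF1, an interferon-induced factor, read 53.4 with BP5, close to the edge of detection, and 159.5 in untreated cells, a log2 ratio of -1.06 (-1.30 to -0.62). JAK1, a kinase of the interferon receptors, read 357.9 with BP5 and 1026 in untreated cells, a log2 ratio of -1.001 (-1.04 to -0.64), at the threshold. The other 9 ran from IRF2 at -0.52 to IFNAR1, a receptor chain, at 0.38, with PIAS1 at -0.26, STAT3 at -0.16, SOCS3 at 0.07, IFNGR2 at 0.15, SAMHD1 at 0.16, PIAS2 and IFI6 at 0.19 each.

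IRF7, the main inducer of type I interferon genes, was well above background in untreated cells alone. Its level was at least 3.61-fold lower with BP5, a bound computed against the lowest signal called well above background on the BP5 array or the probe's own. Of 30 cytokines and chemokines on the array 5 were measured, and none was called (median -0.28), with TGFB3 at -0.55 and IL18 at -0.07. Cytokine and immune receptors gave 8 measured genes of 30 and no call (median -0.04), between TNFRSF8 at -0.92 and IL4R at 0.51.

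Immediate-early genes and MAPK phosphatases had 1 higher gene of 9 (median 0.21). DUSP6, a phosphatase that ERK induces and that acts on ERK, read 318.1 with BP5 and 213.1 in untreated cells, a log2 ratio of 1.096 (0.66 to 1.22). MYC, the oncogene at the viral insertion, read 175613 with BP5 and 169697 in untreated cells, a log2 ratio of 0.57, and neither spot was saturated. These raw signals were close, so the ratio of MYC rests largely on the scaling between arrays. JUN had -0.05, DUSP1 -0.53, KLF6 -0.02, SGK1 0.21 and BTG1, an anti-proliferative gene, 0.27. Of 20 genes of MAPK, PI3K and mTOR signalling (median -0.31), RASA2, a GTPase-activating protein for Ras, was lower at -1.04 (-1.26 to -0.65), and MAPK3, the kinase ERK1, had 0.15.

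The Wnt, Notch, Hedgehog and TGF-β list had 2 higher genes of 15 (median -0.03). HES4, a transcriptional repressor of the Notch pathway, read 1112 with BP5 and 703.8 in untreated cells, a log2 ratio of 1.18 ± 0.20 (1.18 to 1.30). CTNNB1, the β-catenin gene, read 869.4 with BP5 and 609.3 in untreated cells, a log2 ratio of 1.03 (0.77 to 1.153), and its call was lost when neighbouring spots were subtracted. WNT5A had -0.72, SMAD2 -0.58 and FZD4, a Wnt receptor, -0.25.

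**Figure D3:**
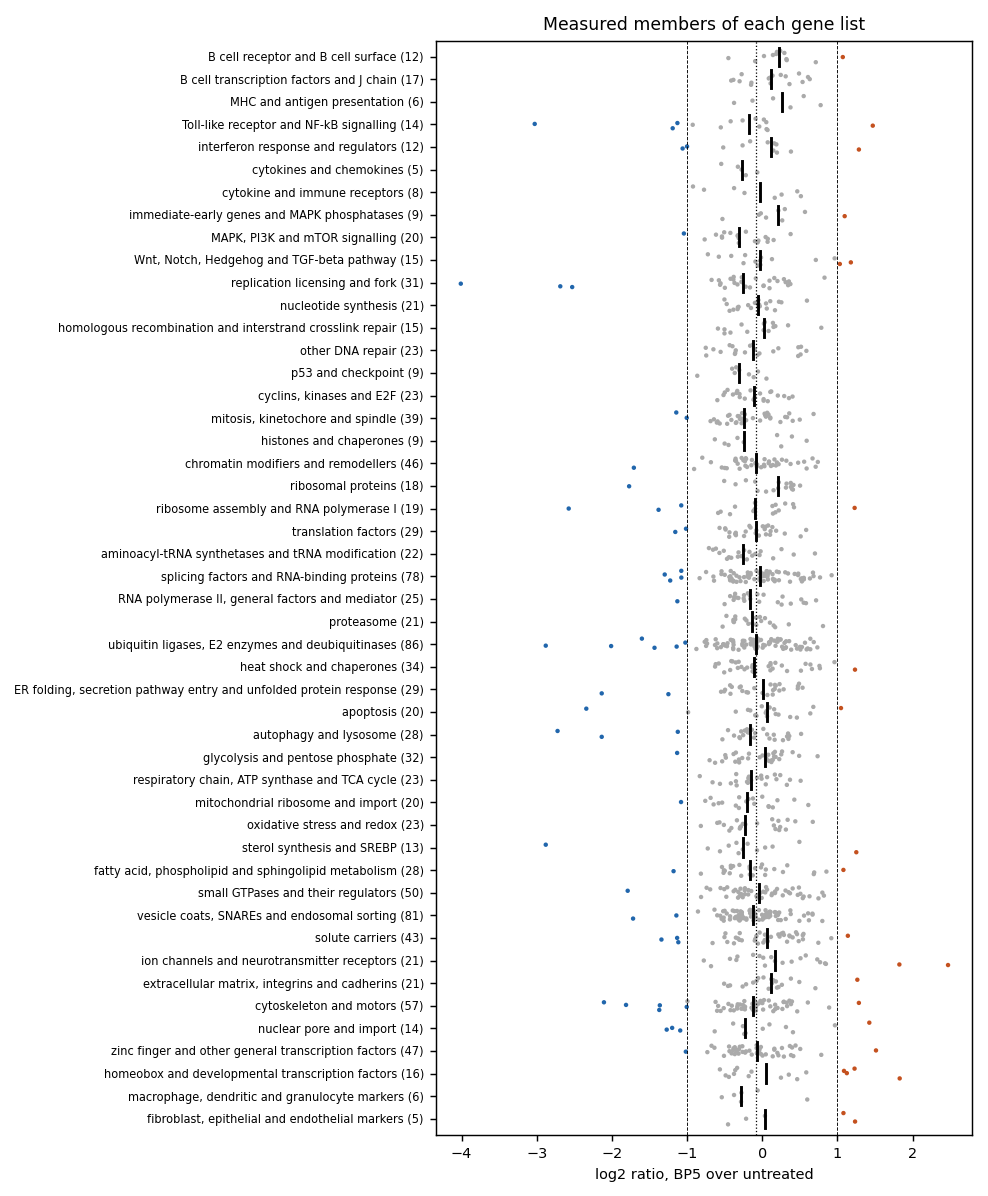
Log2 ratio of BP5 over untreated for the measured members of each gene list with at least 5 of them (number in parentheses). Orange and blue points lie past 2-fold up and down, black bars are list medians, and the dotted line is the median of all genes, -0.09. List medians lie between -0.31 and 0.26, and most points past 2-fold are single genes away from the rest of their list.

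Ribosomal protein genes showed no call other than RPL7L1, an RPL7-like protein of ribosome assembly, which read 1004 with BP5 and 4910 in untreated cells, a log2 ratio of -1.77 ± 0.20 (-1.79 to -1.30). The median of the list's 18 measured genes was 0.22. It was 0.28 with lowess, 0.57 with normexp and 0.09 with neighbours subtracted. With quantile normalization it was -0.01 and in the authors' table -0.003, so it depended on the processing. RPLP1, a protein of the ribosomal stalk, read 143190 with BP5 and 144749 in untreated cells, a log2 ratio of 0.50. RPL37 was well above background in untreated cells alone and at least 3.602-fold lower with BP5.

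Ribosome assembly and RNA polymerase I had 1 higher and 3 lower genes of 19 (median -0.10). RIOK2, a kinase of small subunit maturation, read 1884 with BP5 and 1152 in untreated cells, a log2 ratio of 1.23 ± 0.20 (1.05 to 1.43). POP4, a subunit of RNase P and RNase MRP, read 142.7 with BP5 and 1218 in untreated cells, a log2 ratio of -2.57 ± 0.23 (-2.57 to -1.86). Both kept 2-fold throughout, whereas NOL11 at -1.38 (-1.38 to -0.47) and TAF1B at -1.08 (-1.08 to -0.75) did not. PNO1, also a small-subunit assembly factor but outside the list and picked by its value, read 3890 with BP5 and 27676 in untreated cells, a log2 ratio of -2.31 ± 0.20 (-2.31 to -2.03). With BSP-II the log2 ratio of PNO1 was 0.19. The PNO1 spot lies in an area, rows 1 to 75 of columns 4 to 18, where measured probes had a median of -0.56 with BP5 and 0.10 with BSP-II, and PNO1 had -2.08 after subtraction of its neighbours. The nucleolar protein gene NCL had 0.22 with BP5.

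In translation, 2 of 29 factors (median -0.09) were lower and neither kept its call throughout: EIF2S2, the β subunit of eIF2, at -1.16 (-1.17 to -0.75), and the helicase EIF4A2 at -1.01 (-1.01 to -0.71). EIF4A2 read 13908 with BP5 and 40251 in untreated cells, and the poly(A)-binding protein gene PABPC1 had a log2 ratio of 0.08. None of 22 genes of tRNA charging and modification was called (median -0.26), and KARS, the lysine tRNA ligase gene, had 0.70.

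Splicing and RNA-binding factors had 4 lower genes of 78 and none higher (median -0.03). HNRNPH1 and U2AF1, a subunit of the factor that reads the 3′ splice site, were at -1.08 each, and CNOT8, a deadenylase, at -1.22. RBM3, a cold-inducible RNA-binding protein, read 6334 with BP5 and 22307 in untreated cells, a log2 ratio of -1.30, which became -0.07 once its neighbouring spots were subtracted. None of the 4 kept its call in every alternative. QKI had the highest log2 ratio, 0.92. Among 25 RNA polymerase II and mediator genes (median -0.16), MED17 was lower at -1.13 (-1.13 to -0.80).

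Protein turnover gave 6 lower genes of 86 ubiquitin ligases, E2 enzymes and deubiquitinases, and none higher (median -0.09). Over all genes 3.78% were lower and 2.24% higher. MYLIP, a ligase that targets the LDL receptor, read 55.6 with BP5 and 587.0 in untreated cells, a log2 ratio of -2.88 ± 0.33 (-2.92 to -1.71). MARCH5, a ligase of the mitochondrial outer membrane, read 140.4 with BP5 and 810.8 in untreated cells, a log2 ratio of -2.01 ± 0.23 (-2.03 to -1.34). USP7, a deubiquitinase that acts on p53 and MDM2, was at -1.60 but -0.62 after subtraction of its neighbours, and FBXO8 at -1.43 but -0.18. TRIM14 at -1.02 and KLHL31 at -1.14 also lost their calls under some alternative. The value of KLHL31 averages 2 probes, at -2.03 and -0.24, and the spots around the first had a median of -0.91. The 21 proteasome genes held no call (median -0.13), from PSMA1 at -0.53 to PSMA2 at 0.81.

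Chaperones (median -0.10) had 1 higher gene of 34, CRYAB, a small heat shock protein gene, which read 51.1 with BP5 and 31.2 in untreated cells, both near the edge of detection. Its log2 ratio was 1.23, and it turned to -0.10 under normexp. At that untreated level only a ratio past 2-fold could take CRYAB past the BP5 detection edge, so the filter set its call. HSPB1 had 0.96 and the ER chaperone HSP90B1 -0.62. In the ER list (median 0.00) 2 of 29 genes were lower. CCPG1, an ER-phagy receptor that is also in the autophagy list, read 234.0 with BP5 and 1473 in untreated cells, a log2 ratio of -2.14 ± 0.21 (-2.49 to -1.54). BCAP29, an ER membrane protein gene, read 5744 with BP5 and 19555 in untreated cells, a log2 ratio of -1.25 (-1.39 to -0.85).

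Autophagy and lysosome genes had 3 lower of 28 (median -0.16). Besides CCPG1 these were STBD1, which binds glycogen for its delivery to lysosomes, at 49.95 with BP5 and 472.6 in untreated cells (log2 ratio -2.72 ± 0.35, -2.79 to -1.57), and the receptor OPTN at -1.12 (-1.12 to -0.80). MAP1LC3B, which marks autophagosomes, had -0.09. In the apoptosis list of 20 measured genes (median 0.06) PDCD4, a tumour suppressor that inhibits eIF4A, was higher, with 1528 with BP5 and 1059 in untreated cells and a log2 ratio of 1.05 ± 0.20 (1.05 to 1.18). PDCD10, a scaffold protein named for cell death, was lower, with 279.8 with BP5 and 2031 in untreated cells and a log2 ratio of -2.34 ± 0.21 (-2.34 to -1.66). Both kept 2-fold throughout.

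In central metabolism the counts are to be read against the 2.24% of all genes that were higher and the 3.78% that were lower. Of 32 glycolysis and pentose phosphate genes (median 0.03), SLC2A1, a glucose transporter, was lower at -1.13 (-1.13 to -0.77), and GPI had 0.12. None of 23 respiratory chain and TCA cycle genes was called (median -0.15), from SUCLG2 at -0.83 to NDUFA9 at 0.51, and none of 23 redox genes (median -0.22), from GSTT1 at -0.82 to NFE2L2, the oxidative stress regulator, at 0.67. MRPL50 was the 1 lower gene of 20 for mitochondrial ribosomes and import (median -0.20), at -1.08 (-1.08 to -0.71). Of 13 sterol genes (median -0.26) MYLIP was lower and APOB higher, and HMGCS1, an early enzyme of sterol synthesis, had -0.73. APOB read 61.8 with BP5 and 37.2 in untreated cells, a log2 ratio of 1.25 that turned to -0.08 under normexp. CHKA, which makes phosphocholine, was lower at -1.18 (-1.18 to -0.85), and FABP3, a fatty acid carrier, higher at 1.08 (0.10 to 1.201), of 28 lipid genes (median -0.17). APOB and FABP3 were so dim in untreated cells that only a positive log2 ratio could take them past the BP5 detection edge.

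Of 43 solute carriers (median 0.06), SLC35B1 was higher at 1.14 (0.08 to 1.26), and SLC25A15, the mitochondrial ornithine carrier, SLC2A1 and SLC16A9 were lower, at -1.34, -1.13 and -1.12. None kept its call in every alternative. SLC35B1 was so dim in untreated cells that only a positive log2 ratio could take it past the BP5 detection edge. Ion channels and transmitter receptors were mostly dim, and 21 of 69 were measured (median 0.17). Of these 2 were higher and none lower, against 2.24% and 3.78% of all genes. Both lie in the dimmest of 4 equal signal groups, where 44 of 636 genes were higher. CHRNA2, a nicotinic receptor subunit, read 432.1 with BP5 and 111.6 in untreated cells, a log2 ratio of 2.47 ± 0.22 (1.64 to 2.59), the highest of all named genes. CHRNA8, another subunit, read 76.3 with BP5 and 30.9 in untreated cells, at the edge of detection, a log2 ratio of 1.82 (0.17 to 1.95). At that untreated level only a ratio past 2-fold could take CHRNA8 past the BP5 detection edge, so the filter set its call and not only the direction. CHRNG, also a subunit gene, was well above background with BP5 alone and at least 3.18-fold higher. That its bound passed 2-fold follows from the unequal detection edges. CHRNB4, a further subunit gene, was well above background in untreated cells alone, at 51.1 against 47.9 with BP5. Its bound of 0.73 gives no fold.

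The cytoskeleton list had 1 higher and 5 lower genes of 57 (median -0.12). STMN1, which destabilizes microtubules, read 988.4 with BP5 and 6097 in untreated cells, a log2 ratio of -2.11 ± 0.20 (-2.11 to -1.74). MARCKSL1, an actin-regulating protein gene, read 55.1 with BP5 and 277.2 in untreated cells, a log2 ratio of -1.81 ± 0.33 (-1.93 to -1.01). ARPC1A at -1.37, LMNB1 at -1.36, KIF14 at -1.005 and, on the higher side, PLS3 at 1.29 lost their calls under some alternative. RAC1, a GTPase of actin dynamics, was the 1 lower gene of 50 small GTPases and regulators (median -0.04), with 4302 with BP5 and 21319 in untreated cells. Its log2 ratio of -1.79 became -0.94 with neighbours subtracted, and CDC42 had -0.19.

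Among vesicle and sorting genes 1 of 81 (median -0.12) was lower, the ESCRT protein gene CHMP7 at -1.72, or -0.90 with neighbours subtracted. The nuclear pore list had 3 lower genes of 14 (median -0.23), against 3.78% of all genes: NUP50 at -1.27, NUP85 at -1.20 and NUP188 at -1.09. XPO7, an exportin, was higher at 1.42, against 2.24% of all genes that were higher. XPO7 read 79.3 with BP5 and 42.3 in untreated cells, and its lowest value over the alternatives was 0.02. At that untreated level only a positive log2 ratio could take XPO7 past the BP5 detection edge. None of these calls held throughout.

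Developmental genes were seldom well above background. Of 88 homeobox and developmental factors 66 were well above background on neither array and 16 were measured (median 0.05). Higher were 4 of the 16, CDX4 at 1.83, SIX3 at 1.23, MYOD1 at 1.12 and PAX7 at 1.09, against 2.24% of all genes. Their BP5 signals were 87.4, 453.3, 66.3 and 107.5, against 35.2, 277.3, 43.5 and 72.5 in untreated cells, and all 4 calls were lost under normexp. CDX4 and MYOD1 were so dim in untreated cells that only a positive log2 ratio could take them past the BP5 detection edge. For CDX4 that ratio had to be close to 2-fold. All 4 lie in the dimmest of 4 equal signal groups, where 44 of 636 genes were higher. The count of 4 is thus one of genes that the filter let through. NR2E3, a nuclear receptor known from photoreceptors, read 1063 with BP5 and 533.4 in untreated cells, a log2 ratio of 1.51 ± 0.21 (1.35 to 1.63), the 1 higher gene of 47 general transcription factors (median -0.08). NR0B1 was the 1 lower gene there, at -1.02 (-1.02 to -0.68). The lists of other cells gave no call among 3 T cell, 6 macrophage and 3 erythroid genes measured. Of 5 measured fibroblast, epithelial and endothelial genes 2 were higher, KRT75 at 1.08 and CLDN3 at 1.23, against 2.24% of all genes. These 2 also lie in the dimmest signal group. NCAM1 at 1.26 was the 1 higher gene of 21 in the matrix and adhesion list. None of these genes kept its call throughout. NCAM1 and KRT75 were so dim in untreated cells that only a positive log2 ratio could take them past the BP5 detection edge. For NCAM1 that ratio had to be past 2-fold, so the filter set its call.

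Some of the 38 genes belong to no list. PRLHR2, a receptor for prolactin-releasing peptide, read 2487 with BP5 and 954.0 in untreated cells, a log2 ratio of 1.90 ± 0.20 (1.90 to 2.17). MME, the surface peptidase CD10 that marks early B cells in mammals, read 3586 with BP5 and 1921 in untreated cells, a log2 ratio of 1.42 ± 0.20 (1.42 to 1.74). LIMK2, a kinase acting on cofilin, had 1.29, FGF3, a growth factor, 1.16, and GJA4, a gap junction protein gene, 1.08. On the lower side CASC4 read 219.5 with BP5 and 1894 in untreated cells (-2.59 ± 0.21), and MTMR2, a phosphoinositide phosphatase, 72.0 with BP5 and 519.7 in untreated cells (-2.33 ± 0.28). BRMS1L, a subunit of a histone deacetylase complex, had -2.22, NAIF1 -2.09, MPPE1 -1.96, PMM2, an enzyme of mannose supply for glycosylation, -1.93, RASD1 -1.90, CPTP, a ceramide-1-phosphate carrier, -1.81, BEAN1 -1.79, TPD52 -1.68 and FGL2 -1.57. The log2 ratios with BSP-II, to the same untreated spots, differed among these. They were -0.08 for BRMS1L, 0.25 for NAIF1, -0.04 for MPPE1, 0.32 for TPD52 and -0.42 for RASD1. The rest had the same sign as with BP5, with -1.87 for PMM2, -2.74 for CASC4 and -1.72 for FGL2. MTMR2 had -1.70, CPTP -1.73 and BEAN1 -1.06 with BSP-II. On the higher side PRLHR2 had 0.94, MME 1.75, LIMK2 1.63, FGF3 1.24 and GJA4 1.07 with BSP-II. NAIF1 and TPD52 lie in an area of the array, rows 1 to 75 of columns 4 to 18, where the median log2 ratio of all measured probes was -0.56 with BP5 and 0.10 with BSP-II. After subtraction of neighbouring spots NAIF1 had -1.54 and TPD52 -1.17 with BP5, and the part of the array position in the contrast with BSP-II was not tested.

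The calls in the 2 directions differed in signal level. With the genes put into 4 equal groups by mean signal, the dimmest group held 44 higher and 37 lower genes, and the brightest held 0 higher and 9 lower. Between them, the group next to the dimmest held 10 higher and 28 lower genes, and the one next to the brightest 3 higher and 22 lower. The filter shapes the dim end, because the detection edge lies higher with BP5 after scaling. A gene near the untreated edge was measured only where its ratio was raised. NCAM1, at 51.1 with BP5 and 30.4 in untreated cells, is such a gene, with a log2 ratio of 1.26. At that untreated level only a ratio past 2-fold could pass the BP5 edge. The higher calls and the median of the dimmest group are therefore partly set by the filter. The interquartile range of the log2 ratios was 0.82 wide in the dimmest group and 0.47 in the brightest, while the median spot error was 0.24 and 0.20. The median log2 ratio was 0.09 in the dimmest group and -0.14 in the brightest. Lowess on signal, which takes out such a trend, gave 41 higher and 82 lower genes, of which 34 and 78 were among the 57 and 96 above.

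**Figure D4:**
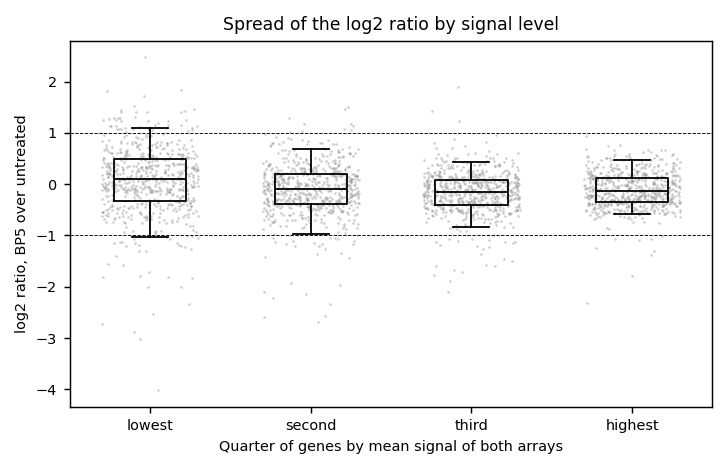
Log2 ratio of BP5 over untreated in 4 equal groups of genes by mean signal; boxes span the interquartile range, whiskers the 5th to 95th percentile, points are genes and dashed lines mark 2-fold. The box narrows from a width of 0.82 in the dimmest group to 0.47 in the brightest.

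Genes seen on 1 array alone have only a bound. The 8 seen with BP5 alone had bounds of at least 2-fold, 6 of them after subtraction of neighbouring spots, among them CHRNG, MASP1 at 2.91, FGFR1OP at 2.81 and CLDN1 at 2.66. After scaling, the detection edge lies higher on the BP5 array than on the untreated one. A gene just past the BP5 edge and under the untreated edge therefore gets a bound past 2-fold. ABLIM1, at 49.4 with BP5, had 2.34. That all 8 reached 2-fold thus follows from the edges. Of the 214 seen in untreated cells alone, 14 had bounds of at least 2-fold and 159 had a bound under 1, which gives no fold. RBM10, a splicing regulator, was at least 6.33-fold lower with BP5, SKP1, which links F-box proteins to cullin ligases, at least 4.46-fold, KDSR, which acts in the synthesis of sphingolipids, at least 3.91-fold, and HABP4 at least 3.88-fold.

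Place on the array went with part of the lower calls. In rows 1 to 75 of columns 4 to 18, 22 of 56 genes (39.3%) were lower with BP5 and 1 was higher, and the median log2 ratio of 289 probes was -0.56. With BSP-II the median of the same probes was 0.10. Besides PNO1, NAIF1 and TPD52, the lower genes there included RAC1, CHMP7, USP7, FBXO8, NOL11, LMNB1, RBM3, NUP85 and NUP188, and all 9 of these fell short of 2-fold once their neighbours were subtracted. Outside that area 56 genes were higher and 75 lower of 2488. Subtracting the median of the spots within 5 rows and columns kept 42 of the 57 higher and 48 of the 96 lower calls. The replication genes MCM5 and DNMT1 had -3.77 and -2.42 after that subtraction, and SIKE1 had -3.34.

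**Figure D5:**
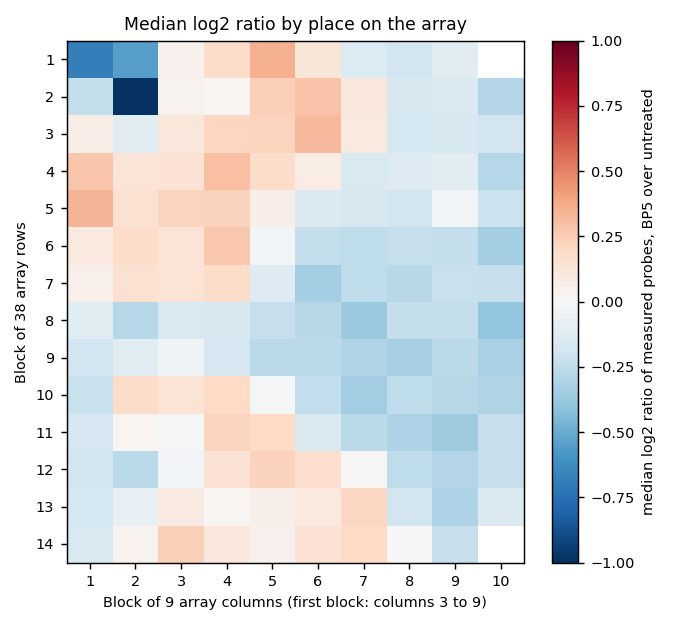
Median log2 ratio of BP5 over untreated of measured probes in blocks of the array (38 rows by 9 columns; blocks with under 20 probes are blank). The darkest blue blocks lie in the first blocks of rows and columns, where 22 of 56 genes were lower.

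Of 55 genes with more than 1 measured probe, 25 had probes of 1 sign, and the probes of a gene spread over a median of 0.49. In 8 genes the spread was over 1. Where 1 probe of these 55 genes passed 2-fold, no other probe of that gene passed it in the same direction. MRPS26 had -1.70 and 0.18, and MFN1 had -1.14 and -0.16. KDELR2, a receptor that returns proteins to the ER, read 241.1 with BP5 and 1773 in untreated cells at one probe, a log2 ratio of -2.36. Its other probe read 26662 with BP5 and 36279 in untreated cells, a log2 ratio of 0.07. HCCS, chosen here after its values were seen, had -2.88 at one probe and 1.59 at the other. Such genes were not called where the signs differed, and all but these 55 genes rest on a single probe.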

How the data were processed

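RNA from 1 BP5 array and 1 untreated array was compared. Per the file headers, Agilent Feature Extraction (version 10.5.1.1) read the spots, and the deposited intensity of each spot is background-subtracted and detrended over the array, with dim spots set to a floor, and is not scaled between arrays. The flags (0 or 1) for spots well above background and for outliers are also as deposited, per the file headers. The authors deposited a further table of log2 values for 20085 probes, whose medians were 7.75 on both arrays, with no centring per gene; it followed log2 of the processed intensity (r of 1.000 across probes on each array, slopes 1.03 with BP5 and 0.978 in untreated cells). The sources used here do not give its normalization, and it served as an alternative.

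From the intensity, log2 was taken minus the array's 75th percentile over 42034 non-control probes, and probes of a gene were averaged. Of 5017 probes with a RefSeq accession, 4000 matched 1 of 3870 gene symbols in RefSeq's GRCg7b table; 38034 probes carry no name here. The spot error combines both spots' scanner errors. A gene was called at 2-fold with no test, since there is 1 array a side. No spot was saturated, and the number of arrays limits the precision. Most genes are named by these rules: the 10 furthest past 2-fold each way, and each list's highest, lowest and brightest. The rules also name every list member past 2-fold, the largest bounds, and all members of 4 immune lists. Others, such as MCM3 and HMGCS1, fit none of these rules, and only some of them are said to be picked by value. A few genes that these rules name are not reported here. The genes and the 50 lists were chosen with earlier results of these data known. Alternatives were percentile over detected probes, quantile, lowess (span 0.3), normexp (limma 3.58.1, offset 50, on median in place of processed signals, mean signals not being used here, so that several steps change together), no filter, neighbour subtraction, columns 1 and 2 kept, the authors' table and 3-fold. Python 3.11.15 with pandas 2.3.3 was used, and the steps were tested on simulated data. The simulation used the untreated array's detection flags on both sides and held no shift by place. It could therefore not test the effect of unequal detection edges or of array position.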

Additional observations from a re-analysis of the deposited data

Results flagged for a closer look

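Columns 1 and 2 of the array were left out of the comparison, and there the 237 measured probes had a median log2 ratio of 0.77, with 19 of 38 genes higher with BP5 and 0 lower. With those columns kept, 75 genes were higher and 96 lower. The cause of the shift at that edge was not tested.

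Probes with no gene name here made up 12805 of the measured probes. Of these, 849 (6.63%) were at least 2-fold higher with BP5 and 381 (2.98%) were lower, against 59 (2.27%) and 102 (3.92%) of the 2602 named probes. The unnamed probes were dimmer, with a median signal of 312.6 with BP5 and 458.5 in untreated cells, against 1161 and 1861 for the named ones. After subtraction of neighbouring spots 662 unnamed probes were higher and 234 lower. Among named genes of the dimmest signal group 44 of 636 were higher, a count partly set by the unequal detection edges. The part of those edges in the count of unnamed probes was not tested.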

How the results depend on the processing

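Counts of called genes, 57 higher and 96 lower as reported, stayed within 1.5 times with the percentile over detected probes, quantile normalization, lowess, columns 1 and 2 kept, the authors' table, and the disturbed area of columns 4 to 18 left out, a setting added after the data were seen. They moved with normexp, to 25 higher and 35 lower, with no filter on dim probes, to 716 and 176, and at a threshold of 3-fold, to 5 and 31. Neighbour subtraction gave 52 lower genes. The share of calls that were higher was 37.3% as reported, 51.0% with the percentile over detected probes, 53.6% with neighbour subtraction and 80.3% with no filter. The median of all genes shifted by 0.12 with the percentile over detected probes, 0.18 with normexp and 0.14 with no filter. Of 80 named genes past 2-fold, normexp ended the call of 51 and reversed 2, CRYAB to -0.10 and APOB to -0.083. That setting changed the spot signal, the background method and the offset together, and the cause was not tested. Neighbour subtraction ended 27 calls and lowess 21. No paired analysis was possible because each group has 1 array. For the same reason no array could be left out in turn. Signal over background limits the dim genes: 81 of the 153 calls lie in the dimmest of 4 equal signal groups.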
